A study of Homo sapiens with 11 samples.

Results

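Histone genes were represented by 98 of the 54675 probe sets of the HG-U133 Plus 2 array, a probe set being a group of short oligonucleotides that together give the transcript level of 1 or several genes. A probe set was taken when every symbol it carries in the platform annotation begins as a histone gene name does, and a probe set that carries several symbols was counted as 1 unit. Of the 98, 70 carried symbols of replication-dependent histones (7 of H1, 15 of H2A, 20 of H2B, 11 of H3, 15 of H4 and 2 shared by H2A and H3 genes). Another 24 carried replacement histones (5 of H1, 18 of H2A and 1 of H3), and the last 4 were an antisense transcript and pseudogenes. The 98 name 76 genes in 66 different sets of symbols, 20 carry several symbols, all of them replication-dependent, and 33 have the suffix _x_at or _s_at, which marks oligonucleotides shared by several transcripts. Signals from near-identical histone copies can therefore not be separated. A further 8 probe sets combine the replacement histones H3-3A and H3-3B with a pseudogene or a microRNA symbol, so the rule leaves them out. None of these 8 was called in any of the 7 comparisons below.

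The samples were 11 RNA preparations from A673sh, a line of A673 Ewing sarcoma cells that carries the EWS-FLI1 fusion and, in every group, a hairpin against EWS-FLI1 that is expressed when doxycycline is added. AKT-resistant FOXO1, CDK2-resistant FOXO1 (FOXO1 altered at the sites that AKT or CDK2 phosphorylates) and empty vector had 1 array each, all without doxycycline. Cells with an shRNA against FOXO1 (sh-FOXO1) and cells with a scrambled shRNA (sh-scrambled) had 2 arrays each with doxycycline, at 1 µg/ml for 48 h, and 2 arrays each without it. Which FOXO1 hairpin these arrays carry is not in the labels. All plasmids were introduced by transient transfection, so an array averages over transfected and untransfected cells, and doxycycline itself cannot be told apart from the EWS-FLI1 knockdown it induces. Of 6 Ewing sarcoma markers, 5 were above the array median on all 11 arrays and XG was above it on 8. Of 8 measured markers of blood, endothelial and epithelial cells, PTPRC, CDH5 and EPCAM were above the median on 0 arrays, CD3E on 7, KRT5 on 10 and PECAM1, VWF and KRT8 on 11, and none of the 8 was called in a tested comparison. The FLI1 part of the fusion (204236_at) was read at 7.17 and 7.25 in sh-FOXO1 cells with doxycycline, against 8.84 and 8.56 without it. In sh-scrambled cells it was read at 6.92 and 6.93 with doxycycline, against 8.84 and 8.71 without it. By other FLI1 probe sets the knockdown was smaller, at −1.19 with sh-FOXO1 and −1.18 with sh-scrambled (210786_s_at) and −0.71 and −0.59 (211825_s_at). The probe sets 234520_at, 234614_at and 237722_at lay between −0.17 and 0.20. FOXO1 (202723_s_at) was read at 5.76 and 5.75 in sh-FOXO1 cells with doxycycline, against 7.35 and 7.04 in sh-scrambled cells with doxycycline, and at 4.97 and 4.80 in sh-FOXO1 cells without doxycycline, against 5.86 and 5.81 in sh-scrambled cells without it. The same probe set read 8.30 with AKT-resistant FOXO1, 7.06 with CDK2-resistant FOXO1 and 5.84 with empty vector. The other FOXO1 probe sets differed from it on these arrays. In the same order 202724_s_at read 5.71, 5.61 and 5.88, and 228484_s_at read 8.84, 8.11 and 3.97. For FOXO1 silencing 202724_s_at gave −1.515 with doxycycline and −1.514 without it, and 228484_s_at gave 0.075 and 0.034. All levels are log2 values as deposited.

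Core histones H2A, H2B, H3 and H4 form the protein spool of the nucleosome, and linker histone H1 binds the DNA between spools. Replication-dependent histone genes lie in clusters, are transcribed mostly in S phase, and yield mRNAs that end in a stem-loop bound by SLBP instead of a poly(A) tail. Replacement histones are made outside S phase as well, mostly from ordinary polyadenylated mRNAs. They are placed into chromatin for particular tasks, as with H2A.Z at promoters and H2A.X at DNA breaks. The labelling kit used for these arrays primes on poly(A), so for replication-dependent genes the arrays read chiefly those transcripts that carry a tail. The part of this in the results was not tested.

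Promoter windows are shown for 5 of the genes on which the results turn, to set the clustered genes beside the replacement genes. The windows run from 250 bases before to 50 bases after the start of the gene, read on the gene's strand, and come from RefSeq on GRCh38.p14. H2AC6 lies at chr6:26123922-26124221 on the plus strand, H2BC5 at chr6:26157871-26158170 on the plus strand and H2BC21 at chr1:149886633-149886932 on the minus strand. H2AX lies at chr11:119095416-119095715 on the minus strand and H2AZ2 at chr7:44848038-44848337 on the minus strand. Capitals mark the CCAAT box (CCAAT), the TATA box (TATAAA) and the octamer (ATTTGCAT), each on either strand.
H2AC6: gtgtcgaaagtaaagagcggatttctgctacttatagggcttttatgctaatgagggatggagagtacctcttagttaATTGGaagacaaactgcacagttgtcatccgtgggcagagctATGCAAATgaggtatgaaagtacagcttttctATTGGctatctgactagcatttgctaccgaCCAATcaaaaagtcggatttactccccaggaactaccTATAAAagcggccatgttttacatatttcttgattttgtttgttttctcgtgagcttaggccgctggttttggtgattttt
H2BC5: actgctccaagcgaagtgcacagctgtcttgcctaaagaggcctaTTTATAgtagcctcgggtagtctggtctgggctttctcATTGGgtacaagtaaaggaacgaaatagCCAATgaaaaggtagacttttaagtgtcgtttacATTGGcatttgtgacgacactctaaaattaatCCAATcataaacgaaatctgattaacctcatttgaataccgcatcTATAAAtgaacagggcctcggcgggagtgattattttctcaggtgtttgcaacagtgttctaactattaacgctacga
H2BC21: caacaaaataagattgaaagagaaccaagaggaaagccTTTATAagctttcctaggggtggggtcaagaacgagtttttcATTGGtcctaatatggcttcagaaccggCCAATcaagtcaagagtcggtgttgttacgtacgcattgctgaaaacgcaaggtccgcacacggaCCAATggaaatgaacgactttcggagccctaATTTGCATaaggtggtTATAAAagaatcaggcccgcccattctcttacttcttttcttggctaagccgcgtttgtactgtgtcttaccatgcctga
H2AX: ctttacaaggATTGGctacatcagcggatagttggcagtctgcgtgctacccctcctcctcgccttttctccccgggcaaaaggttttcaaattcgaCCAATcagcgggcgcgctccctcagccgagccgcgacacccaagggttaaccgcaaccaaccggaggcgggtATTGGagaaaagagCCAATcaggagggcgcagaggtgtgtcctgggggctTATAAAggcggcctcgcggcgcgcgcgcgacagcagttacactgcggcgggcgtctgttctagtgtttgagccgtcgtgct
H2AZ2: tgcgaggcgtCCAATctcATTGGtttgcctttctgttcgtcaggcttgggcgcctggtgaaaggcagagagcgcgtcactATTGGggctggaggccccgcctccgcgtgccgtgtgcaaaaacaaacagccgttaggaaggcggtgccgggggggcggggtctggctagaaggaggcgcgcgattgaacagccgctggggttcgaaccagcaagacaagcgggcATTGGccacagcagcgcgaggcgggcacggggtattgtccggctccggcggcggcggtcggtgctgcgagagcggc

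A window was found for 66 of the 76 genes. The octamer, which is known from H2B promoters and is bound by POU2F1, was present in 13 of 16 H2B windows and 8 of 13 H2A windows, in 1 of 9 H3 windows and in none of the H1, H4 or replacement windows, against 2.19% of all genes of the table. Of the 8 H2A windows with it, 6 overlap the window of an H2B gene on the other strand, so that 1 octamer can be counted for both genes. H2BC21 and H2AC6 hold the octamer, whereas H2BC5 does not. The CCAAT box was in 47 of 57 replication-dependent windows and 7 of 9 replacement windows (39.72% of all genes). By family it was in every replication-dependent H1, H2A, H2B and H3 window but in only 3 of 13 H4 windows. The TATA box was in 38 of 57 replication-dependent and 3 of 9 replacement windows (13.99% of all genes). H2AX is among the 3 replacement genes with a TATA box, and H2AZ2 has 4 CCAAT matches without one. Of the letters searched for factors that bear on the design, the forkhead motif GTAAACA was in 1 of 57 replication-dependent windows (4.19% of all genes), the ETS motif ACCGGAAGT in 0 of 57 (1.20% of all genes) and the E2F motif TTTCCCGC in 1 of 57 (1.98% of all genes). None of these 3 was in a replacement window. No motif contains the letters of another, and a match is a description of the sequence alone.

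The 2 classes differed in how many probe sets gave a signal above the middle of the array. Among the replication-dependent probe sets, 32 of 70 were under the array median on all 11 arrays, and 21 had a mean at or above the 60th percentile of all probe sets. Among the replacement probe sets these counts were 5 and 17 of 24. Calls below rest on limma with Benjamini-Hochberg adjustment over all 54675 probe sets, and need an adjusted p under 0.05 together with a log2 change past 1 (2.0-fold) for EWS-FLI1 knockdown or past 0.7 (1.62-fold) for the other comparisons. Over the tested comparisons, 16 of the 98 were called at least once, 13 of them replication-dependent and 3 replacement, and none of the 40 probe sets that stayed under the median on all arrays was among them. Within a group the arrays correlated at 0.9954 to 0.9979 over all probe sets. The labels do not say that the 2 arrays of a group come from separate cultures, so p-values measure the spread between these arrays, which may be technical. In bulk RNA, fewer cells of a type or phase and less RNA per cell cannot be told apart.

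Histone probe sets moved in both directions when EWS-FLI1 was knocked down in sh-scrambled cells. H3C6, an H3 gene, H2BC21, an H2B gene, and the H2A pair H2AC18 and H2AC19 rose, while 1 of 5 probe sets that carry the same 14 H4 genes, the H2B pair H2BC11 and H2BC8, and the replacement histone H2AX fell. Of the 70 replication-dependent probe sets 3 were higher and 2 lower, and of the 24 replacement probe sets 0 were higher and 1 lower, against 3.56% higher and 2.81% lower of all probe sets. These shares, 4.29% and 2.86% for the replication-dependent class, are close to those of the whole array. At an adjusted p under 0.05 of any size, 14 of the 70 were higher and 9 lower, against 14.2% higher and 16.8% lower of all probe sets (limma).

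H3C6 (236278_at) read 5.79 and 5.68 with doxycycline, against 3.89 and 3.99 without it. Its lowest array with doxycycline lay well above the highest without it, and the log2 fold change was 1.79 (SE 0.09, adjusted p = 1.3e-06, limma). The second H3C6 probe set (214616_at) did not show this, at 0.16. H2BC21 (202708_s_at) read 6.43 and 6.23 with doxycycline, against 5.29 and 5.00 without it. The groups did not overlap, and the change was 1.19 (SE 0.10, adjusted p = 3.1e-05, limma). H2AC18 and H2AC19 (214290_s_at) read 9.26 and 9.27 with doxycycline, against 8.10 and 8.38 without it. This is a change of 1.03 (SE 0.11, adjusted p = 0.00011, limma), which fell to 0.89 and under the fold limit when sh-scrambled replicate 1 was left out. A second probe set of the pair (218280_x_at) gave 0.79 (adjusted p = 0.00021, limma) and another (218279_s_at) −0.18.

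The called probe set of the 14 H4 genes (205967_at, whose design accession belongs to H4C3) read 11.05 and 10.90 with doxycycline, against 12.22 and 12.20 without it. It fell by 1.23 on the log2 scale (SE 0.08, adjusted p = 4.7e-06, limma). The other 4 probe sets of these genes were not called, at 0.10 (207046_at), −0.16 (208181_at), 0.07 (208580_x_at) and −0.04 (214516_at), and of them only 208580_x_at was above the array median on any array. H2BC11 and H2BC8 (210387_at) read 4.63 and 4.69 with doxycycline, against 5.49 and 6.50 without it. The change of −1.33 (SE 0.26, adjusted p = 0.0043, limma) rests on sh-scrambled arrays that differ from each other by about as much, and without sh-scrambled replicate 2 it was −0.83 and under the limit. The other probe set of this pair (215779_s_at) gave −0.67 (adjusted p = 0.0022, limma).

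In sh-FOXO1 cells the knockdown left 2 replication-dependent probe sets higher and 1 lower, and 0 replacement probe sets higher and 1 lower, against 3.17% higher and 2.36% lower of all probe sets. At an adjusted p under 0.05 of any size, 8 replication-dependent probe sets were higher and 10 lower, against 12.8% higher and 14.9% lower of all probe sets (limma). H3C6, the H4 probe set 205967_at and H2AX were called in the same direction as in sh-scrambled cells, and these comparisons share no array. H3C6 (236278_at) read 5.54 and 5.77 with doxycycline, against 4.67 and 4.54 without it. Its change of 1.05 (SE 0.09, adjusted p = 4.1e-05, limma) dropped under the limit, to 0.93 or 0.99, when replicate 2 of sh-FOXO1 with or without doxycycline was left out. The probe set 205967_at read 10.05 and 10.17 with doxycycline, against 11.76 and 11.68 without it, a change of −1.61 (SE 0.08, adjusted p = 1.1e-06, limma), whereas the other 4 of the same 14 genes lay between −0.16 and −0.05 and were not called. H4C8 (232035_at), a single H4 gene, rose, with 5.77 and 5.73 with doxycycline, against 4.73 and 4.67 without it, a change of 1.05 (SE 0.08, adjusted p = 2.1e-05, limma). The second H4C8 probe set (208180_s_at) gave 0.48 (adjusted p = 0.0091, limma). H4C8 is also among the 14 genes of 205967_at, so probe sets that share a gene moved in opposite directions.

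**Figure D1:**
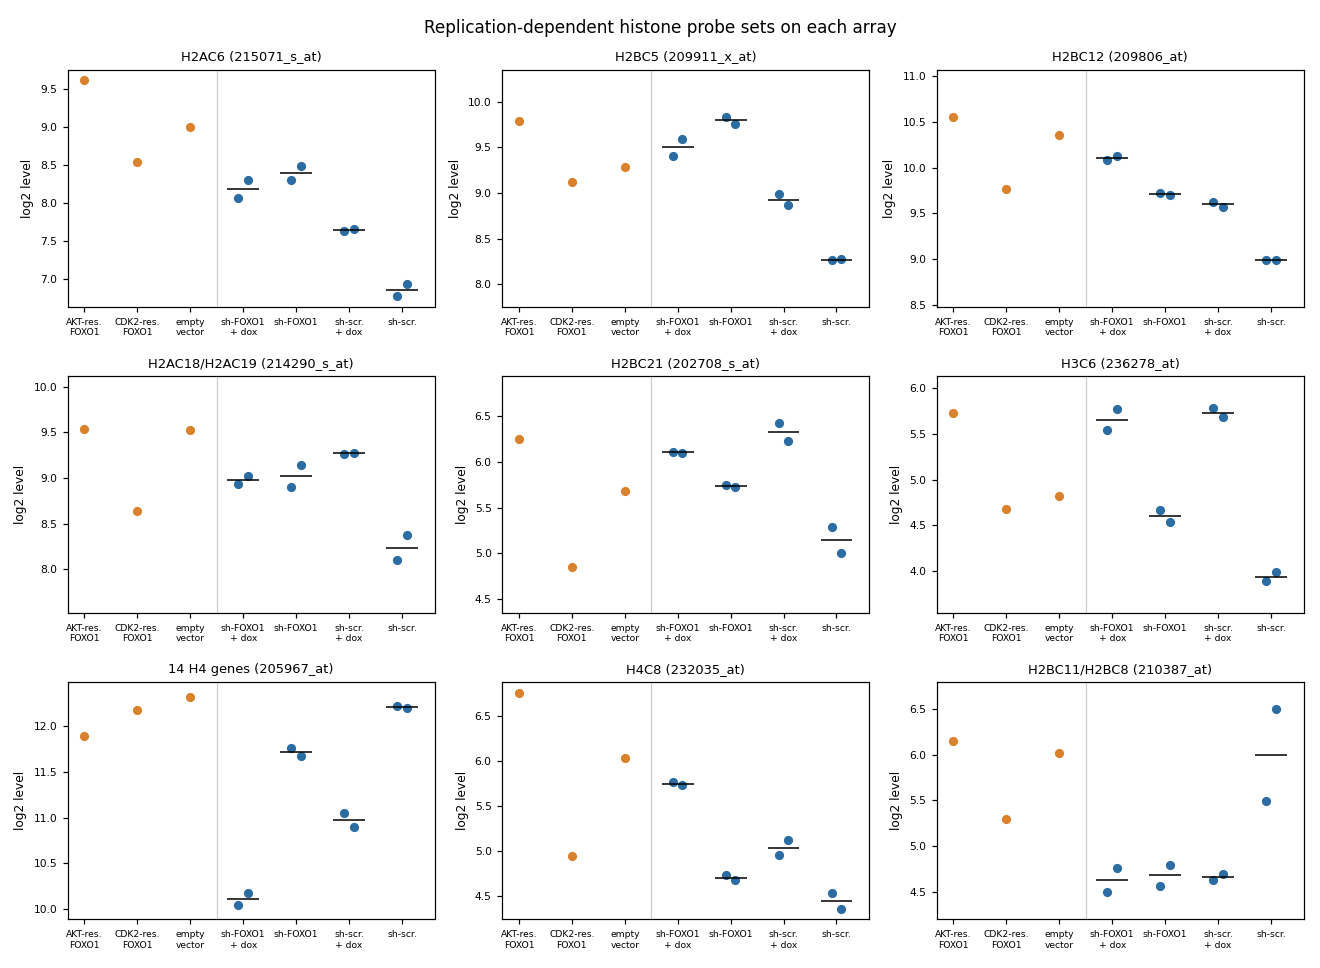
Log2 level (y axis, a separate range in each panel) of 9 replication-dependent histone probe sets on every array, with the 7 groups along the x axis. Each point is an array, orange for the groups of 1 array and blue for the groups of 2, with the group mean as a line; the H4 probe set 205967_at is lowest on the sh-FOXO1 arrays with doxycycline, at 10.05 and 10.17, and H2AC6 is lowest on the sh-scrambled arrays without it, at 6.76 and 6.93.

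Among the replacement histones of these 24 probe sets H2AX, the variant phosphorylated at DNA breaks, was the gene that fell past the limit in both backgrounds. At an adjusted p under 0.05 of any size, 9 of the 24 probe sets were lower and 2 higher in sh-FOXO1 cells, where 14.9% of all probe sets were lower and 12.8% higher. In sh-scrambled cells 10 were lower and 2 higher, where these shares were 16.8% and 14.2% (limma). H2AX (205436_s_at) read 9.51 and 9.33 in sh-scrambled cells with doxycycline, against 10.83 and 10.58 without it, and fell by 1.28 (SE 0.11, adjusted p = 3.2e-05, limma). In sh-FOXO1 cells it read 8.91 and 8.84 with doxycycline, against 10.22 and 9.97 without it, and fell by 1.22 (SE 0.11, adjusted p = 5e-05, limma). The group arrays did not overlap in either case, and both calls were kept when any single array was left out. Of the other 3 H2AX probe sets, 212525_s_at gave −0.49 with sh-FOXO1 and −0.63 with sh-scrambled, 213344_s_at gave −0.36 and −0.50 in the same order, and 212524_x_at gave −0.14 and −0.21.

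H2AZ1, which encodes the main H2A.Z protein of promoters, stayed within the fold limit. Its probe set 213911_s_at read 12.45 and 12.44 in sh-scrambled cells with doxycycline, against 13.12 and 13.10 without it, a change of −0.67 (adjusted p = 6.4e-05, limma). In sh-FOXO1 cells it read 12.05 and 12.13 with doxycycline, against 12.86 and 12.78 without it, a change of −0.72 (adjusted p = 4.5e-05, limma). The arrays with doxycycline were the lower ones each time with no overlap, and the second H2AZ1 probe set (200853_at) gave −0.89 with sh-FOXO1 and −0.87 with sh-scrambled. MACROH2A2 (218445_at), a large H2A variant found on silent chromatin, read 8.54 and 8.44 in sh-scrambled cells with doxycycline, against 9.37 and 9.11 without it. Its change was −0.75 there (adjusted p = 0.00031, limma), under the limit. In sh-FOXO1 cells it read 8.38 and 8.32 with doxycycline, against 9.12 and 9.01 without it, a change of −0.71 (adjusted p = 0.00047, limma). The related MACROH2A1 had 7 probe sets that disagreed in sign, from −0.38 (214501_s_at, adjusted p = 0.012, limma) to 0.66 (214500_at, adjusted p = 0.044, limma) in sh-scrambled cells. H1-10 (204805_s_at), a replacement linker histone, read 8.23 and 7.88 in sh-scrambled cells with doxycycline, against 8.59 and 8.31 without it, a difference that did not pass the test (−0.40, adjusted p = 0.053, limma). H3-3A (213826_s_at), the only replacement H3 probe set, gave 0.04 in sh-FOXO1 cells (adjusted p = 0.84, limma) and 0.27 in sh-scrambled cells (adjusted p = 0.075, limma).

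**Figure D2:**
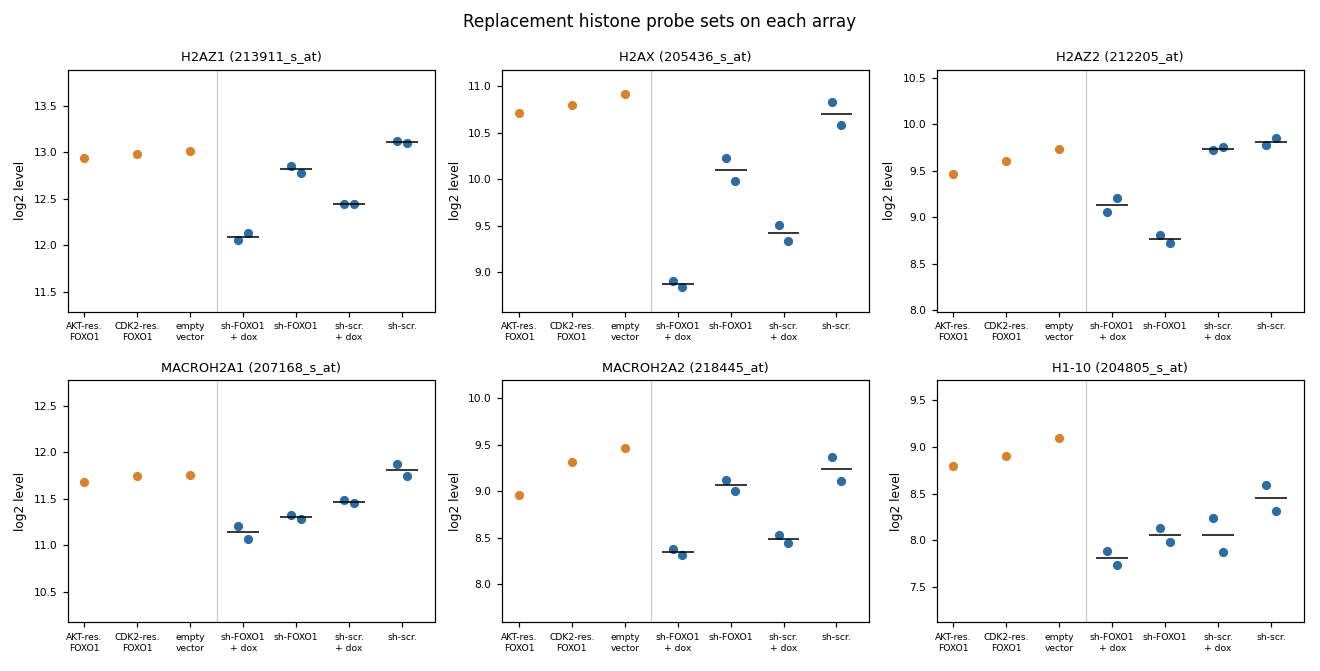
Log2 level (y axis, a separate range in each panel) of 6 replacement histone probe sets on every array, with the 7 groups along the x axis. Each point is an array, orange for the groups of 1 array and blue for the groups of 2, with the group mean as a line; H2AX is lower with doxycycline than without it in both shRNA backgrounds, whereas H2AZ2 (212205_at) is lower in sh-FOXO1 than in sh-scrambled cells, at 8.81 and 8.72 against 9.77 and 9.85 without doxycycline.

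FOXO1 silencing without doxycycline, where EWS-FLI1 is present, had more higher calls of replication-dependent probe sets than the other tested comparisons at its fold limit. The knockdown comparisons have a stricter fold limit, so their calls cannot be ranked against these. At an adjusted p under 0.05 of any size, 15 replication-dependent probe sets were higher here and 14 in the knockdown with sh-scrambled (limma). The shares of all probe sets were 6.39% and 14.2% in the same order. Of the 70 probe sets 6 were called higher and 1 lower with this silencing, against 1.36% higher and 0.966% lower of all probe sets. All 6 were H2A or H2B. Among the 20 H2B probe sets 4 were higher and 1 lower, with a median log2 fold change of 0.37, and 11 were higher at an adjusted p under 0.05 of any size (limma). At that criterion 15 of the 98 histone probe sets were higher and 12 lower, against 6.39% higher and 6.19% lower of all probe sets. Several of these probe sets carry near-identical H2B copies and are not independent readings. The 24 replacement probe sets had 0 higher and 2 lower, both of H2AZ2. At an adjusted p under 0.05 of any size 0 of the 24 were higher and 8 lower, against 6.39% and 6.19% of all probe sets (limma). The medians were 0.04 for the replication-dependent class, −0.21 for the replacement class and under 0.01 in size for all probe sets. Among probe sets with a mean at or above the 60th percentile, a restriction chosen after the values had been seen, the medians were 0.52 for the 21 replication-dependent (17 above 0), −0.40 for the 17 replacement and again under 0.01 in size for all.

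H2AC6 (215071_s_at) read 8.30 and 8.48 in sh-FOXO1 cells, against 6.76 and 6.93 in sh-scrambled cells. No array of the groups overlapped, and the change was 1.54 (2.91-fold, SE 0.10, adjusted p = 8.1e-05, limma). H2BC5 (209911_x_at) read 9.83 and 9.76 in sh-FOXO1 cells, against 8.26 and 8.27 in sh-scrambled cells, a change of 1.53 (2.88-fold, SE 0.08, adjusted p = 3.1e-05, limma). Its second probe set (222067_x_at) rose by 1.13 (adjusted p = 8.1e-05, limma), so both readings of the gene moved together. H2BC12L (208579_x_at) read 8.63 and 8.77 in sh-FOXO1 cells, against 7.78 and 7.96 in sh-scrambled cells, a change of 0.83 (adjusted p = 0.00062, limma). H2BC12 (209806_at) read 9.72 and 9.70 in sh-FOXO1 cells, against 8.99 and 8.98 in sh-scrambled cells, a change of 0.72 (adjusted p = 0.00026, limma) that stands just past the limit. The replicates of H2BC12 lay within a few hundredths of each other in each of these groups. H2AC18 and H2AC19 (214290_s_at) read 8.90 and 9.14 in sh-FOXO1 cells, against 8.10 and 8.38 in sh-scrambled cells. Their change of 0.78 (adjusted p = 0.0024, limma) was 0.64 without sh-scrambled replicate 1 and 0.66 without sh-FOXO1 replicate 2, both under the limit.

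The lower calls came from 1 H2B probe set and from H2AZ2. H2BC11 and H2BC8 (210387_at) read 4.57 and 4.79 in sh-FOXO1 cells, against 5.49 and 6.50 in sh-scrambled cells, the widely spread pair named above, with a change of −1.32 (adjusted p = 0.013, limma). That call was lost when either sh-FOXO1 array was left out, with adjusted p up to 0.087 (limma). H2AZ2 (212205_at), the second H2A.Z gene, read 8.81 and 8.72 in sh-FOXO1 cells, against 9.77 and 9.85 in sh-scrambled cells, a change of −1.04 (SE 0.08, adjusted p = 0.00012, limma), and 212206_s_at fell by 0.97 (adjusted p = 0.00018, limma). The other H2AZ2 probe sets were 227085_at, at −0.42 (adjusted p = 0.0061, limma), and 202487_s_at, at −0.15 (adjusted p = 0.26, limma). The sizes thus differed by probe set within the gene. The knockdown comparison in sh-scrambled cells uses the same sh-scrambled arrays without doxycycline, and low readings on those arrays enter both.

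With doxycycline, FOXO1 silencing changed 1 replication-dependent probe set upward and 1 downward, and none of the replacement class, against 1.31% higher and 1.04% lower of all probe sets. At an adjusted p under 0.05 of any size, 0 replacement probe sets were higher and 8 lower, against 6.44% higher and 6.15% lower of all probe sets (limma). H4C8 (232035_at) read 5.77 and 5.73 in sh-FOXO1 cells, against 4.96 and 5.12 in sh-scrambled cells. The change was 0.71 (SE 0.08, adjusted p = 0.0011, limma), and it fell to 0.63 or 0.69 when replicate 1 of sh-scrambled or of sh-FOXO1 with doxycycline was left out. The H4 probe set 205967_at read 10.05 and 10.17 in sh-FOXO1 cells, against 11.05 and 10.90 in sh-scrambled cells, a change of −0.87 (SE 0.08, adjusted p = 0.00034, limma). Its groups did not overlap and the call held for every array left out. Of the other 4 probe sets of the same H4 genes, 208580_x_at gave −0.44 (adjusted p = 0.0085, limma), under the limit, and 3 lay between −0.13 and 0.04. At an adjusted p under 0.05 and a change of any size, 13 of the 98 histone probe sets were higher and 13 lower, against 6.44% higher and 6.15% lower of all probe sets (limma). The genes called without doxycycline were closer together here, and H2AC18 and H2AC19 (214290_s_at) were lower with the silencing instead of higher. That probe set read 8.93 and 9.02 in sh-FOXO1 cells, against 9.26 and 9.27 in sh-scrambled cells. H2AC6 gave 0.55 (adjusted p = 0.0093, limma), from 8.07 and 8.30 in sh-FOXO1 cells and 7.63 and 7.65 in sh-scrambled cells. H2BC5 (209911_x_at) gave 0.57 (adjusted p = 0.0026, limma), from 9.41 and 9.59 in sh-FOXO1 cells and 8.99 and 8.86 in sh-scrambled cells. Neither passed the fold limit, although the arrays of the groups did not overlap. H2AZ2 (212205_at) gave −0.61 (adjusted p = 0.0014, limma). The median was 0.03 for the replication-dependent class and −0.20 for the replacement class, of which 20 of 24 were below 0.

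The effect of the knockdown differed between the shRNA backgrounds for 7 replication-dependent probe sets and for none of the replacement class. All 7 had a lower log2 change in sh-FOXO1 than in sh-scrambled cells, against 0.982% lower and 0.541% higher of all probe sets. The interaction uses the sh-scrambled arrays without doxycycline, as do FOXO1 silencing without doxycycline and the knockdown in sh-scrambled cells. Of the 7, 5 were called higher in at least 1 of those comparisons, so they are not separate findings. At an unadjusted p under 0.05, 8 replication-dependent probe sets had a higher and 14 a lower change, and in the replacement class 2 had a higher and 0 a lower one (limma). The share of all probe sets at an unadjusted p was not counted, so these numbers cannot be set against the whole array. The difference of the changes was −1.07 for H2AC18 and H2AC19 by 214290_s_at (SE 0.16, adjusted p = 0.01, limma) and −0.74 by 218280_x_at (adjusted p = 0.025, limma). It was −0.99 for H2AC6 (adjusted p = 0.01, limma) and −0.95 for H2BC5 by 209911_x_at (adjusted p = 0.0045, limma). H2BC5 gave −0.30 in sh-FOXO1 cells, against 0.66 in sh-scrambled cells, so the signs of the changes were opposite. H2AC25 (221582_at), an H2A gene on chromosome 1, read 6.73 and 6.82 in sh-FOXO1 cells with doxycycline, against 7.20 and 7.28 without it, and 7.38 and 7.35 in sh-scrambled cells with doxycycline, against 7.07 and 7.09 without it. Its difference was −0.75 (adjusted p = 0.0053, limma). The second H2AC25 probe set (231681_x_at), under the array median on all arrays, gave 0.25 (adjusted p = 0.2, limma). The remaining differences were −0.82 for H2BC21 (adjusted p = 0.025, limma) and −0.74 for H3C6 (236278_at, adjusted p = 0.024, limma). The calls of H2BC5 and H2AC25 held for every array left out, and the other 5 were lost when single arrays were left out, any of 3 arrays for 214290_s_at and H2AC6 and any of 6 for 218280_x_at, H2BC21 and H3C6. Without sh-scrambled replicate 1 with doxycycline all 5 were lost and 2 calls remained, and the highest adjusted p of any of the 7 was 0.12 (limma). H2BC11 and H2BC8 (210387_at) had the largest difference of the class, 1.28, which did not pass the test (adjusted p = 0.13, limma). It did so with the replicate number as a block (adjusted p = 0.017, limma), as did the other probe set of this pair (215779_s_at), at 0.72 (adjusted p = 0.0084, limma). Same-numbered arrays deviated together, with correlations of 0.31 to 0.47, and the blocked fit had 2 histone probe sets higher and the same 7 lower, against 0.752% higher and 1.14% lower of all probe sets.

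**Figure D3:**
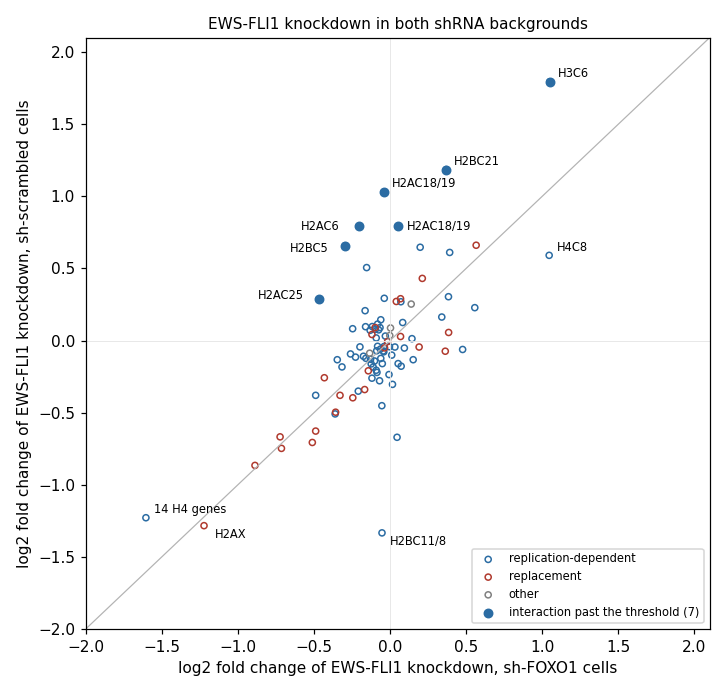
Log2 fold change of EWS-FLI1 knockdown for each of the 98 histone probe sets with sh-FOXO1 (x axis) and with sh-scrambled (y axis). Each point is a probe set, coloured by class, the grey diagonal marks equal change, and filled points are the 7 whose difference passed the threshold; all 7 lie above the diagonal, with H3C6 at 1.05 and 1.79 and H2AC18/19 (214290_s_at) at −0.04 and 1.03.

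The FOXO1 mutants had 1 array each and were compared with the 1 empty vector array. A log2 difference past 0.7 was counted, with no test and no replicate check. AKT-resistant FOXO1 showed 4 higher and 0 lower of 70 replication-dependent probe sets, against 1.33% higher and 1.15% lower of all probe sets. All 4 had a mean under the 60th percentile of all probe sets, and 0 of the 21 with a mean at or above it were higher. CDK2-resistant FOXO1 showed 0 higher and 12 lower, against 1.16% higher and 1.21% lower of all probe sets. None of the 24 replacement probe sets passed in either. The replication-dependent median was 0.15 with AKT-resistant and −0.20 with CDK2-resistant FOXO1, while the replacement medians were −0.14 and −0.12 and those of all probe sets were below 0.01 in size. H2BC4 (236193_at) read 6.67 with AKT-resistant and 4.24 with CDK2-resistant FOXO1, against 5.78 with empty vector. H4C8 (232035_at) read 6.75 with AKT-resistant and 4.95 with CDK2-resistant FOXO1, against 6.03 with empty vector, and its second probe set (208180_s_at) read 6.20 and 4.70, against 6.31. The CDK2-resistant array was the low one in each of these, and the AKT-resistant array was high by only 1 of the H4C8 probe sets. H3C6 (236278_at) read 5.73 with AKT-resistant and 4.67 with CDK2-resistant FOXO1, against 4.82 with empty vector. H2AC18 and H2AC19 (214290_s_at) read 9.54 with AKT-resistant and 8.64 with CDK2-resistant FOXO1, against 9.53 with empty vector. H2BC21 read 6.26 with AKT-resistant and 4.86 with CDK2-resistant FOXO1, against 5.69 with empty vector. The H4 probe set 205967_at, called in 3 of the shRNA comparisons, read 11.89 with AKT-resistant and 12.18 with CDK2-resistant FOXO1, against 12.32 with empty vector, and H2AX read 10.71 and 10.79, against 10.91. By family, 6 of the 12 lower with CDK2-resistant FOXO1 were H2B, 3 H2A, 2 H4 and 1 a probe set of 10 H3 genes and H2AC7 (214472_at), which read 5.21 with AKT-resistant and 4.21 with CDK2-resistant FOXO1, against 5.85 with empty vector. Of the 12, H2BC21 and 214290_s_at had a mean at or above the 60th percentile of all probe sets, and the lowest mean was 3.80, for a probe set of 6 H2A genes (207156_at).

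These counts changed with the control array. The empty vector array was higher than the mean of the sh-scrambled arrays without doxycycline, another control, in 23 of 70 replication-dependent and 1 of 24 replacement probe sets and lower in 0 of both, against 4.42% higher and 1.92% lower of all probe sets. H2AC6 read 9.00 with empty vector, 2.15 above the sh-scrambled mean, and the 214455_at probe set of 5 H2B genes lay 2.12 above it. With the empty vector and both sh-scrambled arrays as a 3-array control, AKT-resistant FOXO1 had 21 higher and 0 lower (3.45% and 2.04% of all probe sets), and CDK2-resistant FOXO1 had 1 higher and 2 lower (0.829% and 0.457% of all probe sets). Transfection, plasmid and hybridisation cannot be told apart between these controls. A comparison of the mutant arrays with each other, added after the values had been seen, needs no control array. AKT-resistant FOXO1 was higher than CDK2-resistant FOXO1 in 21 and lower in 0 of 70 replication-dependent probe sets, against 2.87% higher and 2.54% lower of all probe sets, with a median of 0.40 and 55 of 70 above 0. Among the 24 replacement probe sets none passed in either direction, and the median was −0.06. The widest gaps were 2.43 for H2BC4 (236193_at), 1.84 for 214455_at and 1.81 for H4C8 (232035_at).

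**Figure D4:**
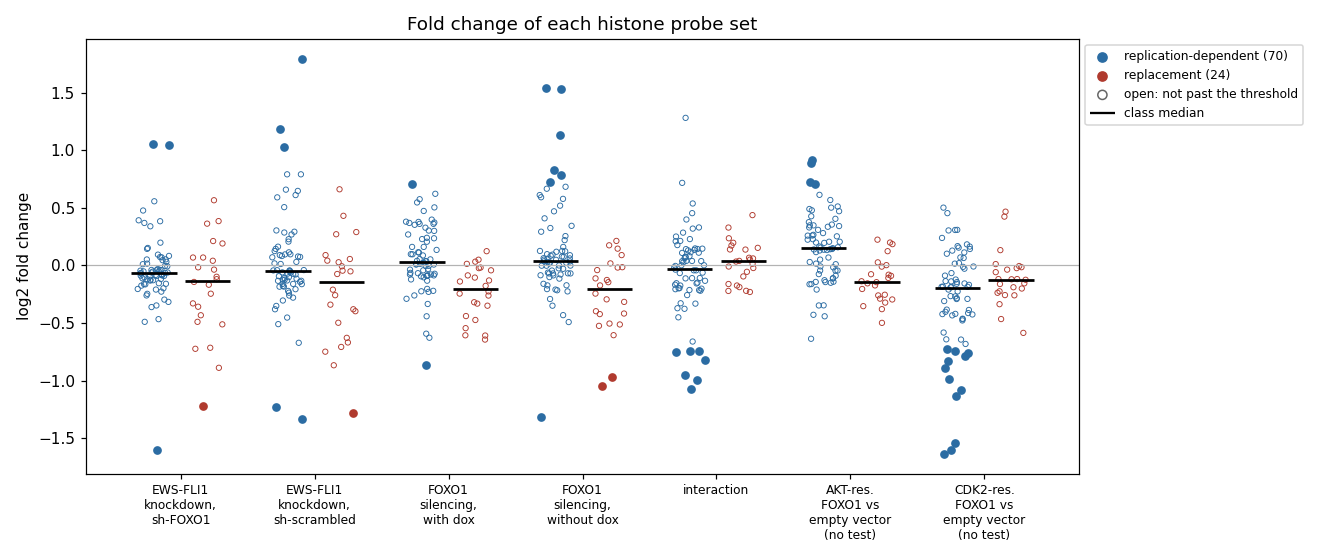
Log2 fold change (y axis) of each replication-dependent (blue, 70) and replacement (red, 24) histone probe set in 7 comparisons (x axis). Filled points passed the threshold of the comparison, the last pair of comparisons has no test, and bars are class medians; FOXO1 silencing without doxycycline has 6 replication-dependent points above the threshold and CDK2-resistant FOXO1 has 12 below it.

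Across the 7 groups the classes differed in which arrays lay apart as a whole. The median difference of its 70 probe sets from the sh-scrambled mean was 0.39 on the AKT-resistant array, 0.10 on the CDK2-resistant array and 0.29 on the empty vector array. It lay from −0.06 to 0.06 on the other 8 arrays, the sh-scrambled arrays included. The replacement class gave −0.08, 0.02 and 0.06 on the first 3 arrays, −0.59 and −0.51 in sh-FOXO1 cells with doxycycline, −0.24 and −0.21 in sh-FOXO1 cells without it, and −0.15 and −0.12 in sh-scrambled cells with it. The replacement class was lowest on the sh-FOXO1 arrays with doxycycline, and the replication-dependent class highest on the arrays of the plasmid groups. By family, the H1 probe sets (7 replication-dependent and 5 replacement) had no call in any of the 7 comparisons. H1-2 (209398_at) read 6.10 and 6.21 in sh-FOXO1 cells with doxycycline, against 6.44 and 6.54 in sh-scrambled cells with doxycycline, a change of −0.33 (adjusted p = 0.033, limma). H3C8 (208496_x_at) read 5.89 and 5.77 in sh-FOXO1 cells with doxycycline, 5.76 and 5.79 in sh-FOXO1 cells without it, 5.71 and 5.73 in sh-scrambled cells with it and 5.82 and 5.94 in sh-scrambled cells without it. These arrays lay within a narrow band, and no comparison of H3C8 passed the test (lowest adjusted p = 0.15, limma). At an unadjusted p under 0.05, the replication-dependent H1 probe sets numbered 0 or 1 in each direction of the tested comparisons (limma), with no share of all probe sets counted. The H3 probe sets, those shared with H2A aside, had calls for H3C6 alone in these 7 comparisons. The H4 probe sets had them for 1 of the 5 with 14 genes (205967_at) and for H4C8 (232035_at). The second H4C8 probe set (208180_s_at) passed the limit for CDK2-resistant FOXO1 alone, where no test was run. None of the 4 antisense and pseudogene probe sets was called.

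Genes that supply and handle histones were described from lists of their roles, by the probe set with the highest mean for each gene. The shares of all probe sets given beside these counts include probe sets of low signal, so they are not matched in signal to the lists. Of 21 listed genes, 20 of them measured, for transcription and 3′ end formation of replication-dependent histone mRNAs, 1 fell after knockdown in sh-scrambled cells, SLBP, the stem-loop binding protein, by 1.03 (adjusted p = 3.2e-06, limma), and none was called in sh-FOXO1 cells, where SLBP gave −0.73 (adjusted p = 3.1e-05, limma). At the same limits, lower calls made up 2.36% of all probe sets with sh-FOXO1, against 2.81% with sh-scrambled. With FOXO1 silencing ZNF473, the zinc finger protein of the U7 processing complex, rose by 0.77 with doxycycline (adjusted p = 0.0024, limma) and by 0.72 without it (adjusted p = 0.0033, limma). CSTF3, a subunit of the cleavage machinery, rose by 0.73 with doxycycline (adjusted p = 0.00072, limma). These are 2 of 20 genes with doxycycline and 1 of 20 without it, against 1.31% and 1.36% of all probe sets. Of 22 histone chaperone and deposition genes, 5 fell and 0 rose in sh-FOXO1 cells, and 6 fell and 0 rose in sh-scrambled cells, against 2.36% and 2.81% of all probe sets lower. Among them HJURP, the chaperone of the centromeric H3 variant, fell by 1.77 in sh-FOXO1 and by 1.84 in sh-scrambled cells. ASF1B, a chaperone of new H3 and H4, fell by 1.14 in sh-FOXO1 and by 1.46 in sh-scrambled cells, and CHAF1A, a subunit of the replication-coupled assembly factor, fell by 1.29 and by 1.34. None of the 22 was called for FOXO1 silencing. Of 16 S phase genes such as PCNA, the MCM helicase subunits and RRM2, 13 fell and 0 rose in each background, with medians of −1.38 (sh-FOXO1) and −1.62 (sh-scrambled), against the same 2.36% and 2.81% lower of all probe sets. The 70 replication-dependent histone probe sets had medians of −0.06 (sh-FOXO1) and −0.05 (sh-scrambled) in the same comparisons, and the replacement class had −0.13 and −0.14. These class medians include the probe sets of low signal, unlike those of the S phase genes. For the 21 replication-dependent probe sets with a mean at or above the 60th percentile they were −0.09 (sh-FOXO1) and 0.27 (sh-scrambled). For the 17 such replacement probe sets they were −0.33 and −0.38. The part of the S phase genes in the histone results was not tested.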

How the data were processed

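The authors hybridised RNA of 11 A673sh samples to Affymetrix HG-U133 Plus 2 arrays and deposited log2 expression values per probe set (54675, from 2.60 to 14.6), normalized between arrays and not filtered. The base of the log is taken as 2 from that range, with the summarisation not given in the sources used here. Samples were grouped by their labels into 7 groups. Members were found by symbol in the platform annotation, and all 220 symbols they list equal the current RefSeq symbols. The members and lists were chosen with earlier results of these data known.

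All probe sets were fitted with 7 group means in limma 3.58.1 under R 4.3.3, with empirical Bayes and Benjamini-Hochberg adjustment. The residual degrees of freedom were 4, which the shRNA groups supplied, and the prior ones 4.54. No filter on low values was applied, so every member was tested. The interaction is the knockdown effect in sh-FOXO1 cells minus that in sh-scrambled cells. The test was checked on simulated data. The number of arrays limits the precision. Named with every array value were the probe set of highest mean in each class, and up to 5 called probe sets of largest change per class, comparison and direction. Other filters, normalizations, variance models, controls, a replicate block and leaving out each shRNA array were tried.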

Additional observations from a re-analysis of the deposited data

Results flagged for a closer look

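Of the histone probe sets, 7 stood out because the effect of EWS-FLI1 knockdown differed between sh-FOXO1 and sh-scrambled cells in a test of that difference (limma). All 7 were lower, against 0.982% lower and 0.541% higher of all probe sets. The knockdown effect in sh-FOXO1 cells minus that in sh-scrambled cells was −1.07 for H2AC18 and H2AC19 by 214290_s_at and −0.74 by 218280_x_at, −0.99 for H2AC6, −0.95 for H2BC5 by 209911_x_at, −0.82 for H2BC21, −0.75 for H2AC25 and −0.74 for H3C6 by 236278_at. These 7 readings come from 6 sets of symbols, and the replacement class had none. The calls of H2BC5 and H2AC25 held for every array left out, and the others were lost when single arrays were left out. Of the 7, 5 were also called higher for FOXO1 silencing without doxycycline or for the knockdown in sh-scrambled cells. Those comparisons share the sh-scrambled arrays without doxycycline with the interaction. No group had enough arrays for a check of single outlying arrays.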

How the results depend on the processing

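Of 28 calls of single histone probe sets, 17 were kept under every alternative in which the probe set was tested, and 0 reversed. The filter on the mean left some called probe sets untested, such as H3C6 (236278_at) and H4C8 (232035_at). With the adjusted p alone, the counts of higher and lower histone probe sets were 10 and 19 for EWS-FLI1 knockdown with sh-FOXO1, 17 and 19 for the knockdown with sh-scrambled, 13 and 13 for FOXO1 silencing with doxycycline and 15 and 12 without it (limma). With a filter at the 60th percentile of the mean, 0 were higher for the knockdown in sh-FOXO1 cells and for FOXO1 silencing with doxycycline, since H3C6 and H4C8 are then not tested. Leaving out 1 array gave, for higher and lower counts, 1 to 2 and 2 to 2 for the knockdown with sh-FOXO1, 2 to 3 and 2 to 3 for the knockdown with sh-scrambled, 0 to 1 and 1 to 2 for FOXO1 silencing with doxycycline, 6 to 9 and 2 to 4 without it, and 0 to 2 and 2 to 6 for the interaction. The interaction kept the fewest, 2, without sh-scrambled replicate 1 with doxycycline. For AKT-resistant FOXO1 the higher count was 21 with the 3-array control, 2 with quantile normalization and 0 at a limit of 1. For CDK2-resistant FOXO1 the lower count was 2 with the 3-array control, with 1 higher, and 5 at a limit of 1.

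When only probe sets whose mean reached the 60th percentile were kept, a restriction chosen after seeing the data, 10 of 14 class medians moved past the spread between replicates. The replication-dependent median was then −0.091 for the knockdown with sh-FOXO1, 0.27 with sh-scrambled, 0.11 for FOXO1 silencing with doxycycline, 0.52 without it, −0.33 for the interaction, 0.21 for AKT-resistant and −0.42 for CDK2-resistant FOXO1. The replacement median was −0.33 for the knockdown with sh-FOXO1, −0.38 with sh-scrambled and −0.40 for FOXO1 silencing without doxycycline. The replacement median for the knockdown with sh-scrambled was −0.34 with 1 probe set per set of symbols. With probe sets of 1 symbol and no shared suffix, the replication-dependent medians were under 0.01 in size for FOXO1 silencing with doxycycline (−0.005) and without it (−0.001) and for the interaction (0.002), and −0.12 for CDK2-resistant FOXO1. The interaction median was −0.004 with 1 probe set per set of symbols. The cause of these shifts was not tested.

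The replicate numbers of the shRNA groups are shared in the labels. Same-numbered arrays deviated together, with correlations of 0.31 to 0.47 over 6 pairs of groups, but each comparison has only 2 numbers and the labels give no shared day or batch. With the replicate number as a block, 2 histone probe sets were higher in the interaction instead of 0, and no other count moved by more than 1.5 times. Low signal limits 40 of the 98 probe sets, which stayed under the array median on all arrays.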
